A study of Homo sapiens with 40 samples.

Results

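The clustered protocadherins are cell-surface adhesion proteins encoded side by side on human chromosome 5, in groups named alpha, beta and gamma. The 53 genes examined were PCDHA1 to PCDHA13 with PCDHAC1 and PCDHAC2 (15 alpha genes), PCDHB1 to PCDHB16 (16 beta genes), and PCDHGA1 to PCDHGA12, PCDHGB1 to PCDHGB7 and PCDHGC3 to PCDHGC5 (22 gamma genes). The rule takes the genes by name and uses no measured value, but it was set with earlier results of these data known. Of these, 52 matched a row among the 62486 gene identifiers of the count table. PCDHA7 did not, so its transcripts were not analysed here, but its promoter was. Their locus was taken as chr5:140160000-140895000 on GRCh37 (hg19), a window of 735 kb, in which the peaks of 5 chromatin marks, the compartment bins and the edges of topologically associating domains (TADs) were also read.

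All samples were A549, an established human lung adenocarcinoma line that carries K-RAS G12S, grown in the same medium with serum and antibiotics. The control (CT) cells were compared with SETDB1 knockout (KO) cells, in which the gene was disrupted with CRISPR/Cas9 and a guide carried by a plasmid. SETDB1 is an enzyme that places trimethylation on lysine 9 of histone H3 (H3K9me3), a mark of repressed chromatin. RNA-seq had 3 libraries per genotype, Hi-C and each ChIP-seq mark had 2, and the labels do not say whether libraries came from separate cultures or whether the KO line is a clone, so p-values measure only the spread between these libraries. Total counts ranged from 18065062 to 48364919 per RNA-seq library.

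Each alpha and gamma gene supplies its own first exon and promoter, and that exon is spliced to a set of constant exons shared by the whole group, whereas each beta gene is a self-contained exon. The C-type genes (PCDHAC1, PCDHAC2 and PCDHGC3 to PCDHGC5) stand at the end of their groups and are known to be expressed more uniformly between cells than the others. In neurons, cells draw different sets of these genes, and the choice involves DNA methylation, H3K9me3 and the looping of promoters to distant enhancers by the DNA-binding protein CTCF and the cohesin ring. Most of the promoters hold a conserved element with the letters CGCT, and CTCF is known to bind there.

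The promoter sequences were read first, as background. The CTCF peaks described later were not set against them. Promoters from 250 bases before to 50 bases after the start were found for 47 of the 53 genes, 52 promoters in all, in RefSeq on GRCh38.p14. The windows below are 40 bases long, on the + strand, 5′ to 3′, with CGCT in capitals. The examples are genes named in the results that follow, with PCDHGA2 added. The strings searched below were read from PCDHA2, PCDHB16 and PCDHGA2. PCDHA2, PCDHA4 and PCDHA6 all hold the alpha string, so these windows do not show the spread among alpha genes. PCDHA10 and PCDHA11, not printed, have CGCT without that string.
PCDHA2 (chr5:140794779-140794818): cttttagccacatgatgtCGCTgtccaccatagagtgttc
PCDHA4 (chr5:140806977-140807016): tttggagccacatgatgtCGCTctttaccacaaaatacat
PCDHA6 (chr5:140827895-140827934): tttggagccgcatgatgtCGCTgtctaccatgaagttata
PCDHAC1 (chr5:140926218-140926257): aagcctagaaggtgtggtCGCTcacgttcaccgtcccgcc
PCDHAC2 (chr5:140966363-140966402): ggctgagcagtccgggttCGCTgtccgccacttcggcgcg
PCDHB9 (chr5:141187072-141187111): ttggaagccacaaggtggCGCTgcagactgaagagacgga
PCDHB14 (chr5:141223261-141223300): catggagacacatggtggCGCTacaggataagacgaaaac
PCDHB15 (chr5:141245312-141245351): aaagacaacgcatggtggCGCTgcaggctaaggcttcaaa
PCDHB16 (chr5:141182308-141182347): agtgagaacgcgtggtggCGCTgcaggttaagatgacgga
PCDHGA2 (chr5:141338701-141338740): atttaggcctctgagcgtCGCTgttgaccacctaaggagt
PCDHGA3 (chr5:141343765-141343804): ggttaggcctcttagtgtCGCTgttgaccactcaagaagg
PCDHGA4 (chr5:141354958-141354997): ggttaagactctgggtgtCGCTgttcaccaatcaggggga
PCDHGB5 (chr5:141397861-141397900): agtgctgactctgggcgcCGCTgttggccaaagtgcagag
PCDHGC3 (chr5:141475878-141475917): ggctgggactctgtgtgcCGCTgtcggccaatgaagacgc

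Letters around CGCT were alike in part of the promoters of each group, most evenly in beta, and differed between groups. CGCT on the gene's strand, with its first base 100 to 20 bases before the start, was found in 43 of 52 promoters (82.7%), 1 for each of 43 of the 47 genes, and in 23.8% of all 35116 promoters in the table. It was not found in that stretch for PCDHA9, PCDHB5, PCDHB8 and PCDHGB2. The longer strings that follow were picked after the sequences had been seen, were searched on both strands over the whole promoter, and overlap CGCT. ATGATGTCGCT was in 8 of 13 alpha promoters, and those 8 were the only promoters in the table to hold it. GGTGGCGCT was in 13 of 14 beta promoters and in 0.501% of all promoters. Only 12 of the 14 beta genes held CGCT in the stretch above. The search there therefore missed the beta string of PCDHB5, PCDHB8 or both. The CGCT found for PCDHB1 was not part of that string. GNGNCGCTGTTNNCC was in 10 of 25 gamma promoters and in 0.0541% of all. In the windows above, the C-type genes PCDHAC1 and PCDHAC2 lack the alpha string, and PCDHGC3 lacks the gamma string.

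In KO cells, protocadherin transcripts were higher across the cluster. SETDB1 itself, the targeted gene, had 37.5, 39.6 and 38.7 CPM (counts scaled to an equal library total) in the CT libraries and 23.4, 21.2 and 21.1 CPM in the KO libraries. Every KO library lay below every CT library, and the log2 fold change (KO minus CT) was -0.82 (SE 0.060, edgeR adjusted p 1.7e-12). Disruption of a gene by CRISPR/Cas9 need not remove its RNA.

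Of the 52 protocadherins with a row, 45 had enough counts to be tested, with the fit made on 17767 genes. Of those 45, 43 rose in KO, 1 fell and 1 was not called at an adjusted p under 0.05 in edgeR's quasi-likelihood test, and 42 of the 43 rose at least 2-fold. Over all tested genes, 62.8% were called in either direction, 32.8% were called higher, 30.0% lower, and 9.86% at least 2-fold higher. The median log2 fold change of the 45 was 2.44, beside 0.0038 over all tested genes. A gene that passes the count filter only through its KO level is likely to be called, so this count describes the tested genes and not the whole cluster. In bulk RNA, more cells with a transcript and more transcript per cell cannot be told apart.

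Over all 52 rows, tested or not, 47 had every KO library above every CT library, and 34.1% of all tested genes did. At least 1 CPM in all 3 libraries was reached by 18 protocadherins in CT and 36 in KO. This count went from 8 to 10 of 14 alpha genes, from 3 to 10 of 16 beta genes and from 7 to 16 of 22 gamma genes. Most genes that crossed this level were beta and gamma genes. Because CPM is not corrected for gene length, the level is not the same for every gene.

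**Figure D1:**
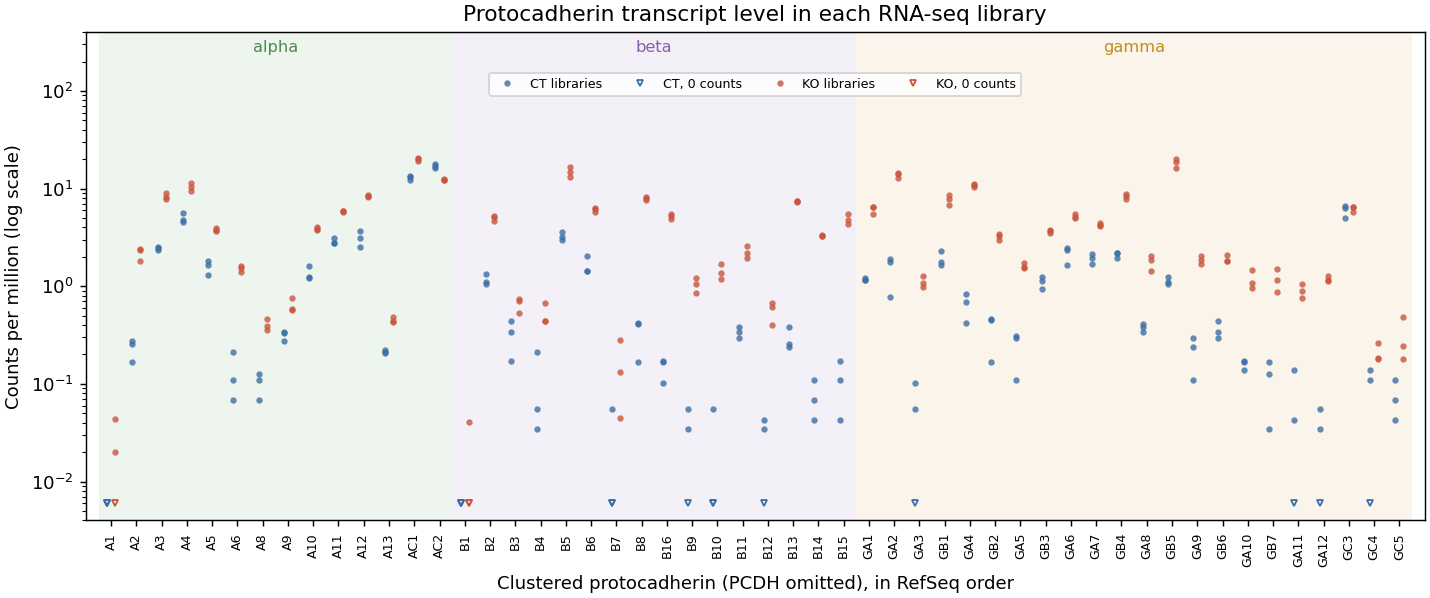
CPM (log axis) of each clustered protocadherin in the 3 CT and 3 KO RNA-seq libraries, in RefSeq order, with libraries at 0 counts drawn as triangles at the bottom. KO points stand above CT points for 47 of 52 genes, and PCDHAC2 is the gene for which all KO points lie below all CT points.

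The beta genes, which carry no shared exons, changed most. Of 16 beta genes, 13 were tested and all 13 rose, with a median log2 fold change of 4.48. The largest fitted value was that of PCDHB10, which had 0, 0.0552 and 0 CPM in CT and 1.18, 1.36 and 1.69 CPM in KO. It rested on 1 count in all CT libraries and 132 in KO, a ratio of 98.7 with a 95% counting interval of 17.4 to 3928. Its fitted log2 fold change of 6.23 (SE 0.56) became 8.37 without CT replicate 2, the library with that count, and 5.62 without CT replicate 3. PCDHB9 likewise had 2 CT counts and 103 KO counts, a ratio of 38.5 with an interval of 10.4 to 322. It stood at 0, 0.0552 and 0.0344 CPM in CT and at 1.05, 1.22 and 0.847 CPM in KO, with no overlap. For both genes the direction was the same in every library, and the size of the change was poorly fixed by the CT counts.

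The next 4 beta genes had 5 or more CT counts and smaller standard errors. PCDHB14 had 0.0425, 0.110 and 0.0687 CPM in CT and 3.36, 3.29 and 3.30 CPM in KO, a log2 difference of 5.46 ± 0.31 (SE; adjusted p 6.5e-15 by edgeR). PCDHB15 had 0.0425, 0.110 and 0.172 CPM in CT and 4.37, 4.73 and 5.48 CPM in KO, a log2 difference of 5.36 ± 0.27 (SE; adjusted p 7.4e-16 by edgeR), which was 5.98 without CT replicate 3. Their KO libraries lay far above the CT libraries, and the KO libraries of PCDHB14 differed little among themselves. PCDHB16 had 0.170, 0.166 and 0.103 CPM in CT and 5.54, 5.28 and 4.90 CPM in KO, a log2 difference of 5.17 ± 0.24 (SE; adjusted p 9.1e-17 by edgeR). PCDHB13 had 0.255, 0.386 and 0.240 CPM in CT and 7.33, 7.45 and 7.44 CPM in KO, a log2 difference of 4.69 ± 0.19 (SE; adjusted p 3.9e-18 by edgeR). Neither gene had overlapping libraries.

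The other 7 tested beta genes had log2 fold changes from 1.11 to 4.48. The smallest was that of PCDHB3, with 0.170, 0.442 and 0.344 CPM in CT and 0.742, 0.710 and 0.535 CPM in KO. Its log2 difference of 1.11 ± 0.34 (SE; adjusted p 0.0068 by edgeR) was not called by DESeq2 (adjusted p 0.058) or without CT replicate 1 in edgeR (adjusted p 0.059). PCDHB4 had a log2 difference of 2.44 (SE 0.50), and 3.58 without CT replicate 1, which held 5 of its 7 CT counts. PCDHB5 was the beta gene with the most counts, and its share of beta counts went from 41.2% ± 3.19 (SD, n = 3) in CT to 24.2% ± 2.37 (SD, n = 3) in KO, without overlap (exact permutation test, two-sided p 0.1, the smallest 3 against 3 libraries allow). Not tested were PCDHB1 (0 counts in CT, 2 in KO), PCDHB7 (1 and 18) and PCDHB12 (2 and 56). PCDHB1 counts were at or under the limit that a count of 0 allows (3 counts), so no fold is given.

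The gamma genes rose less than the beta genes at the median, with 19 of 20 tested genes called higher and a median of 2.79. Among the 12 PCDHGA genes, all tested, the median was 3.00. Among the 7 PCDHGB genes, all tested, it was 2.46. PCDHGA12 had 0, 0.0552 and 0.0344 CPM in CT and 1.13, 1.28 and 1.16 CPM in KO, with 2 CT counts and 115 KO counts, a ratio of 43.0 with an interval of 11.6 to 359. PCDHGA3 had 0, 0.0552 and 0.103 CPM in CT and 1.09, 1.28 and 0.980 CPM in KO, a log2 difference of 4.25 ± 0.46 (SE; adjusted p 5.3e-09 by edgeR), which was 5.34 without CT replicate 3, the library with 3 of its 4 CT counts. PCDHGA4, which had more counts, stood at 0.425, 0.828 and 0.687 CPM in CT and at 10.4, 10.8 and 11.1 CPM in KO, a log2 difference of 4.07 ± 0.16 (SE; adjusted p 8.7e-19 by edgeR). In each of these genes the libraries of the genotypes were apart.

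PCDHGB5 had the most KO counts of any gamma gene. It stood at 1.23, 1.05 and 1.10 CPM in CT and at 18.7, 20.3 and 16.3 CPM in KO, a log2 difference of 4.04 ± 0.13 (SE; adjusted p 1.8e-20 by edgeR). PCDHGB7 had 0.127, 0.166 and 0.0344 CPM in CT and 0.873, 1.5 and 1.16 CPM in KO, a log2 difference of 3.60 ± 0.42 (SE; adjusted p 1.8e-08 by edgeR). PCDHGA11 had 0.0425, 0 and 0.137 CPM in CT and 1.05, 0.893 and 0.757 CPM in KO, a log2 difference of 3.59 ± 0.47 (SE; adjusted p 1.8e-07 by edgeR), which was 4.98 without CT replicate 3. PCDHGB5 was fixed far more closely than the other pair, whose CT totals were 7 and 5 counts. The 13 gamma genes not described singly, C-type genes aside, had log2 fold changes from 1.18 to 3.15, all called higher (largest edgeR adjusted p 3.6e-08).

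The alpha genes rose least. Of 12 tested alpha genes, 11 rose and 1 fell, with a median log2 fold change of 1.17, or 1.35 over the 10 without the C-type genes. PCDHA6 had 0.212, 0.110 and 0.0687 CPM in CT and 1.40, 1.54 and 1.60 CPM in KO, a log2 difference of 3.53 ± 0.35 (SE; adjusted p 8.0e-10 by edgeR). PCDHA2 had 0.255, 0.166 and 0.275 CPM in CT and 1.83, 2.41 and 2.36 CPM in KO, a log2 difference of 3.20 ± 0.27 (SE; adjusted p 5.1e-11 by edgeR). These were the alpha genes with the largest changes, and no library overlapped. PCDHA3 had 2.55, 2.37 and 2.47 CPM in CT and 9.04, 8.24 and 7.80 CPM in KO, a log2 difference of 1.75 ± 0.12 (SE; adjusted p 2.8e-13 by edgeR). PCDHA10 had 1.23, 1.21 and 1.61 CPM in CT and 4.06, 3.79 and 3.88 CPM in KO, a log2 difference of 1.49 ± 0.16 (SE; adjusted p 3.6e-09 by edgeR). Below PCDHA2 the changes of the alpha genes drop to under 2 on the log2 scale.

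PCDHA12 had 2.55, 3.64 and 3.13 CPM in CT and 8.56, 8.30 and 8.38 CPM in KO, a log2 difference of 1.45 (SE 0.12). PCDHA5 had 1.32, 1.82 and 1.65 CPM in CT and 3.80, 3.67 and 3.92 CPM in KO, a log2 difference of 1.25 (SE 0.15). Again the KO libraries were all higher. PCDHA4, PCDHA9, PCDHA11 and PCDHA13 had log2 fold changes of 1.10, 1.08, 1.02 and 1.05. PCDHA9 and PCDHA13, with 22 and 15 CT counts, were not called by DESeq2 (adjusted p 0.070 and 0.12). PCDHA9 was also lost in edgeR without KO replicate 2 (adjusted p 0.077), and PCDHA13 without CT replicate 1, CT replicate 3 or KO replicate 2 (adjusted p 0.056, 0.074 and 0.051). PCDHA1 (0 counts in CT, 2 in KO) and PCDHA8 (7 and 40) were not tested.

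The 3 tested C-type genes had the smallest changes of the 45 tested members. PCDHAC1 had 12.4, 13.6 and 13.0 CPM in CT and 20.3, 19.0 and 20.8 CPM in KO, a log2 difference of 0.62 ± 0.072 (SE; adjusted p 2.2e-08 by edgeR). PCDHAC2 had 16.2, 17.8 and 16.9 CPM in CT and 12.2, 12.3 and 12.7 CPM in KO, a log2 difference of -0.45 ± 0.073 (SE; adjusted p 4.6e-06 by edgeR). PCDHAC2 was the only tested member that fell, and all its KO libraries lay below all its CT libraries. PCDHGC3 had 5.01, 6.40 and 6.66 CPM in CT and 6.46, 6.53 and 5.79 CPM in KO, which overlap, and its log2 difference of 0.06 ± 0.11 (SE; adjusted p 0.64 by edgeR) was not called. PCDHGC4 had 0, 2 and 4 counts in CT and 6, 9 and 4 in KO, and PCDHGC5 had 1, 2 and 2 counts in CT and 11, 12 and 4 in KO. Neither of the latter was tested. Their pooled KO over CT ratios were 2.37 (95% counting interval 0.909 to 7.24) and 4.04 (1.53 to 13.4). Every KO library lay above every CT library in CPM for both, as for 34.1% of all tested genes. The interval of PCDHGC4 takes in no change, so its counts cannot rank it among the members. That of PCDHGC5 lies above no change, but it covers counting error only.

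**Figure D2:**
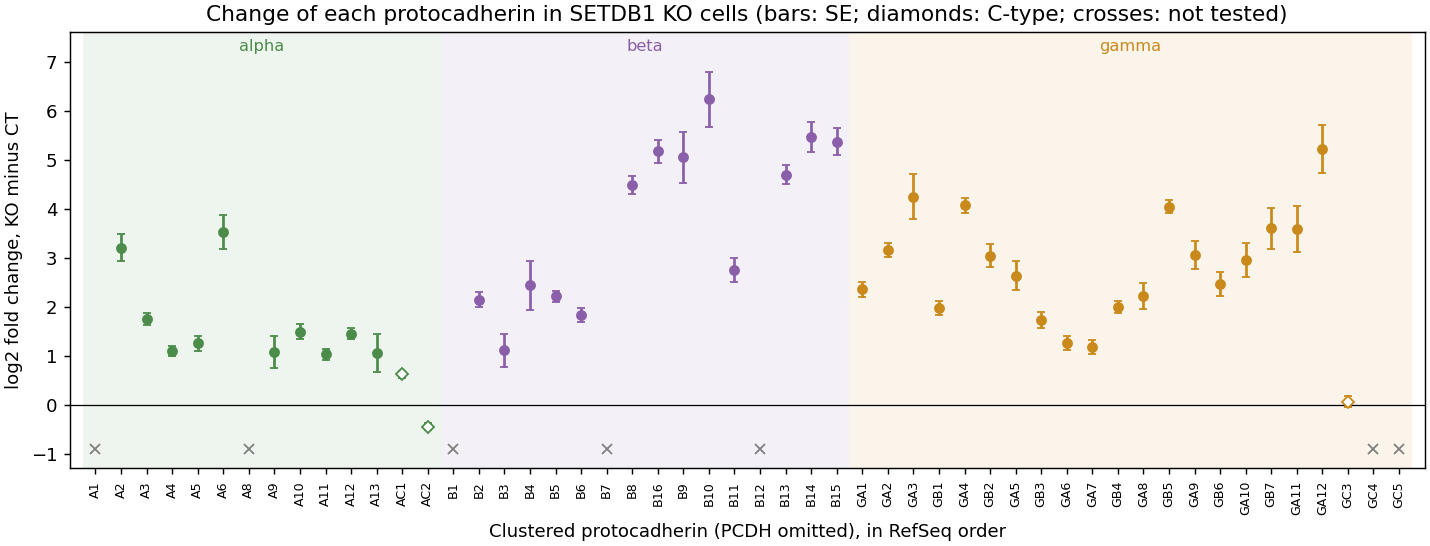
Log2 fold change (KO minus CT, points) with its standard error (bars) for the 45 tested protocadherins in RefSeq order, with C-type genes as open diamonds and the genes that were not tested as crosses at the bottom. The beta genes from PCDHB8 onward, PCDHB11 aside, lie at 4.48 and above, and the C-type genes lie between -0.45 and 0.62.

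Summed over a group, with untested genes included, alpha transcripts came to 44.7, 50.1 and 47.3 CPM in CT and 78.0, 78.2 and 79.0 CPM in KO, which is 1.65-fold. Beta transcripts came to 7.39, 8.34 and 7.87 CPM in CT and 61.9, 62.3 and 59.8 CPM in KO, which is 7.80-fold. Gamma transcripts came to 21.3, 20.9 and 23.2 CPM in CT and 99.6, 104 and 99.4 CPM in KO, which is 4.64-fold. The sums did not overlap between genotypes in any group. They are not corrected for transcript length, so the groups' levels are not compared with each other here, only their changes.

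The difference between groups was tested on the ratio of their sums within each library. Beta over alpha was 0.166 ± 0.00056 in CT and 0.783 ± 0.023 in KO (SD, n = 3 each). Gamma over alpha was 0.461 ± 0.040 in CT and 1.29 ± 0.039 in KO, and beta over gamma was 0.362 ± 0.033 in CT and 0.607 ± 0.013 in KO (SD, n = 3 each). Each ratio was higher in every KO library than in every CT library (exact permutation test, two-sided p 0.1 for each of the 3 ratios, the smallest that 3 against 3 libraries allow, so no ratio can pass 0.05). The C-type genes took 63.3% ± 0.71 of alpha counts in CT and 41.3% ± 1.23 in KO, and 28.4% ± 4.14 of gamma counts in CT and 6.70% ± 0.52 in KO (SD, n = 3 each), again without overlap and with an exact permutation p of 0.1.

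How reads shared between near-identical beta genes, or falling in the constant exons of alpha and gamma genes, were counted is not given in the sources used here. The split of counts between members of a group is therefore uncertain, and its effect on the members' values and on the sums was not tested. Pseudogenes of the cluster moved with the genes. PCDHB17P had 18 counts in CT and 341 in KO, a log2 difference of 3.78 ± 0.26 (SE; adjusted p 5.8e-13 by edgeR). PCDHB18P had 1 and 63, a ratio of 47.1 with an interval of 8.15 to 1890. PCDHGB8P had 2 and 51, a ratio of 19.1 with an interval of 5.02 to 162, and was not tested. PCDHB19P had 0 and 23, at least 5.73-fold higher against 3 counts over the CT libraries, with the KO counts taken as exact. It was not tested either.

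Most listed genes around the cluster were not called higher. Of 21 listed genes of the same stretch of chromosome 5, 19 were tested, with a median log2 fold change of -0.04. Of those 19, 3 rose (15.8%) and 5 fell (26.3%), beside 32.8% and 30.0% of all tested genes. Of the listed genes, only TAF7 and SLC25A2 stood between members in the count table. ZMAT2, before the alpha genes, had 80.3, 79.5 and 78.9 CPM in CT and 64.9, 65.1 and 69.6 CPM in KO, a log2 difference of -0.26 ± 0.047 (SE; adjusted p 2.5e-05 by edgeR). DIAPH1, after the gamma genes, had 65.1, 67.5 and 70.7 CPM in CT and 66.8, 66.9 and 61.9 CPM in KO, which overlap, and was not called (log2 fold change -0.05, SE 0.050, edgeR adjusted p 0.36). TAF7, a subunit of the general transcription factor TFIID that lies between the beta and gamma genes, had 55.6, 58.1 and 60.5 CPM in CT and 92.1, 85.7 and 93.4 CPM in KO. Its log2 difference of 0.63 ± 0.050 (SE; adjusted p 9.4e-12 by edgeR) was the largest increase of the 19. SLC25A2, also between the beta and gamma genes, had 0 counts in CT and 3, 4 and 5 in KO. That is at least 2.99-fold higher against 3 counts over the CT libraries, with the KO counts taken as exact. SLC25A2 was not tested. The unnamed genes ENSG00000272070 and ENSG00000288095, also listed between members, rose by 2.36 and 1.67 on the log2 scale (SE 0.31 and 0.35). Their edgeR adjusted p were 1.5e-07 and 0.00016. With TAF7, PCDHB17P and PCDHB18P, they were the tested non-members listed between the members, and all were called higher.

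Protocadherins outside the cluster went in both directions. Of 12 listed, 4 were tested. PCDH7 had 0 counts in every CT library and 152, 385 and 153 in KO (edgeR adjusted p 1.4e-17). That is at least 172-fold higher against 3 counts over the CT libraries, with the KO counts taken as exact. PCDH9 fell, from 178, 171 and 172 CPM to 136, 123 and 133 CPM, a log2 difference of -0.42 ± 0.044 (SE; adjusted p 4.0e-09 by edgeR), and PCDH12 fell by 0.67 on the log2 scale (SE 0.20, edgeR adjusted p 0.0043). PCDH1 was not called (log2 fold change -0.41, SE 0.25, edgeR adjusted p 0.16). PCDH1 and PCDH12 also belong to the list of genes around the cluster described above.

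Partners of the protocadherins and classical cadherins were likewise mixed, with 9 of 22 tested genes called higher (40.9%) and 8 lower (36.4%). Over all tested genes these shares were 32.8% and 30.0%. CDH6 had the largest increase, from 0.637, 0.442 and 0.859 CPM to 16.1, 15.8 and 14.9 CPM, a log2 difference of 4.52 ± 0.14 (SE; adjusted p 1.1e-20 by edgeR). CDH5 and CDH3 rose by 3.95 and 2.92 on the log2 scale. FYN, a tyrosine kinase, had 3.23, 3.09 and 2.99 CPM in CT and 0.131, 0.406 and 0.446 CPM in KO, and fell by 3.14 on that scale. The list as a whole had a median of 0.12.

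Genes known to act on protocadherin promoters went in both directions. Among 17 known repressors and DNA methylation enzymes, 8 rose (47.1%) and 7 fell (41.2%), beside 32.8% and 30.0% of all tested genes. Their median log2 fold change was 0.10. SETDB1, the gene targeted by design, is counted among the 17 and among those that fell. ATF7IP, which binds and stabilises SETDB1, rose from 68.1, 61.7 and 66.0 CPM to 316, 298 and 291 CPM, a log2 difference of 2.21 ± 0.048 (SE; adjusted p 2.0e-24 by edgeR). Its relative ATF7IP2 rose by 0.61 on the log2 scale, and the DNA methyltransferase DNMT3B fell by 0.59. SMCHD1, a chromatin protein known to repress clustered protocadherins, fell by 0.44. Of the 12 cohesin, CTCF and loop extrusion genes, 2 rose (16.7%) and 6 fell (50%), beside the same 32.8% and 30.0% of all tested genes. SMC3, a cohesin ring subunit, fell from 178, 165 and 163 CPM to 97.3, 94.5 and 96.4 CPM, a log2 difference of -0.81 ± 0.045 (SE; adjusted p 3.7e-15 by edgeR). RAD21 and STAG2, also of cohesin, fell by 0.27 and 0.23, and the cohesin loader MAU2 rose by 0.27. CTCF itself rose by 0.14 (SE 0.044, edgeR adjusted p 0.0087), from 87.0 ± 2.27 to 95.7 ± 1.20 CPM (SD, n = 3 each).

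Markers were read to check the cell type. Their counts of genes that rose or fell stand beside 32.8% called higher and 30.0% called lower over all tested genes. The 12 epithelial markers of the line summed to 22675 to 23301 CPM over the CT libraries and to 26200 to 27027 CPM over the KO libraries. Of 11 tested, 7 rose (KRT18 by 1.73 and KRT8 by 1.54 on the log2 scale) and 4 fell (AKR1C1 by 1.54 and AKR1C2 by 1.12), and SFTPC stood at 0.0811 CPM in CT and 0.116 CPM in KO. The 14 neuronal markers summed to 72.4 to 78.1 CPM in CT and 59.1 to 64.1 CPM in KO. Of 7 tested, 1 rose (SYT1, by 0.53 on the log2 scale) and 4 fell (RBFOX3 by 3.20), and DCX, ELAVL4 and STMN2 were at 0 counts in both genotypes. The 10 fibroblast markers summed to 12.2 to 12.4 CPM in CT and 5.76 to 6.53 CPM in KO, with COL1A2 and DCN at 0. Of 4 tested, 2 rose (COL3A1 by 1.42 and COL1A1 by 0.30 on the log2 scale, the latter not called under 8 alternatives) and 2 fell (PDGFRA by 3.19 and THY1 by 2.90). The 9 matched leukocyte and endothelial markers summed to 0.425 to 0.552 CPM in CT and 4.63 to 5.95 CPM in KO. CDH5 alone had 0.289 CPM in CT and 4.53 CPM in KO on average, with CD3E at 0 in both and PTPRC at 0 in KO. The part of these markers in the protocadherin result was not tested.

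The chromatin of the locus was compared through the deposited peak lists, 1 per mark and genotype, which hold positions and no heights, so the values have no replicate error and no test. In CT cells, H3K9me3 peaks covered most of the locus, and in KO cells almost none of it. There were 37 CT peaks that covered 532.0 kb of the 735 kb (72.4%), and 1 KO peak that covered 3.415 kb (0.465%). Over the whole genome, H3K9me3 peaks covered 11.3% in CT and 20.5% in KO, so the coverage of the locus and of the genome went opposite ways. The widest CT peak, chr5:140609756-140828318, was 218563 bases long, and no KO peak overlapped it. In the reverse direction the background was 56.3% of KO peaks without a CT partner. The KO peak, chr5:140465460-140468874, lay inside the CT peak chr5:140452841-140481591. Of the 37 CT peaks, 35 had no KO partner, beside 60.0% of CT peaks genome-wide. In equal windows on each side, CT coverage was 12.3% before and 4.57% after the locus, and KO coverage was 2.21% and 0%.

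**Figure D3:**
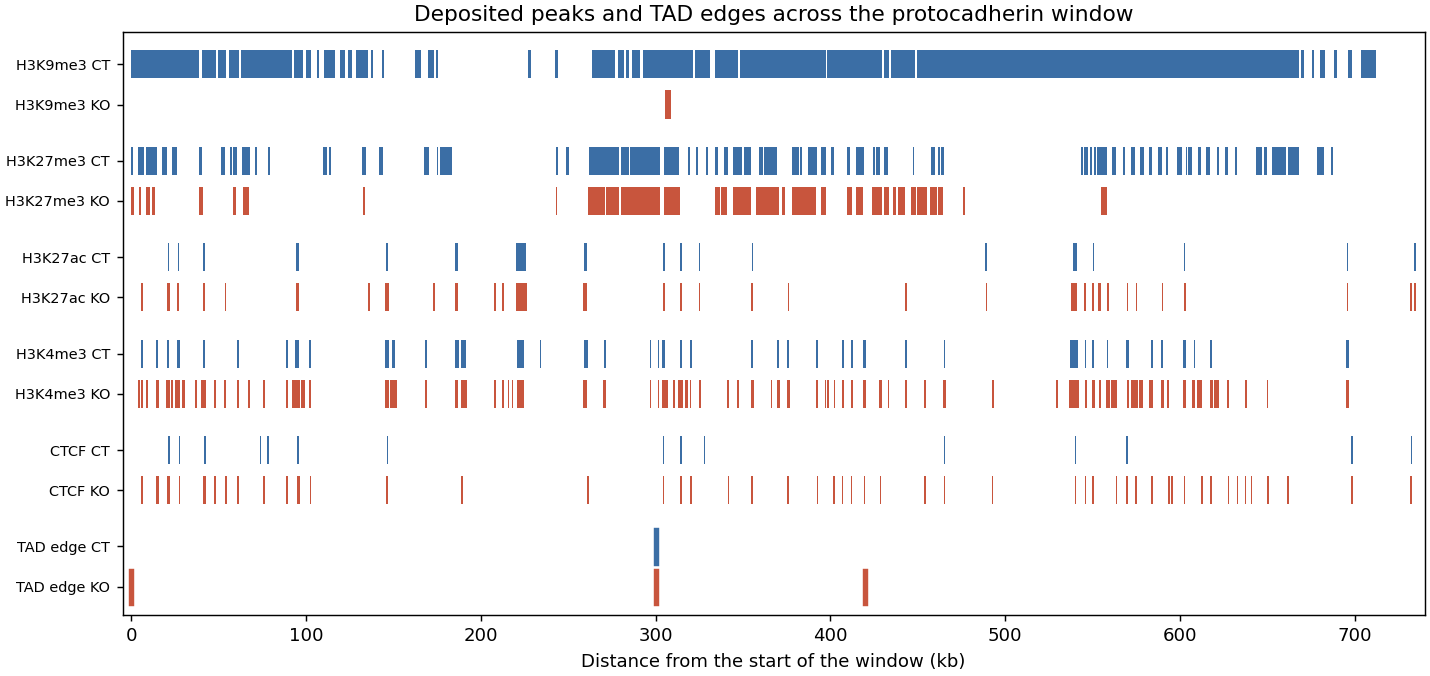
Deposited peaks of 5 marks and TAD edges along the 735 kb window, as distance from its start in kb, with a CT and a KO row for each mark; narrow peaks are drawn slightly wider than they are. The H3K9me3 row is filled over 72.4% of its length in CT and holds 1 short peak in KO, while the CTCF row goes from 15 to 55 peaks.

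More CTCF peaks were called in KO, most of them where CT cells had H3K9me3 peaks. There were 15 CTCF peaks in CT and 55 in KO, where the genome had 23903 and 34474. Of the CT peaks, 12 had a KO partner and 3 did not (genome 44.1% without one), and of the KO peaks, 43 had no CT partner (78.2%, genome 61.4%). In the equal windows before and after the locus, the number went from 13 to 22 and from 21 to 23. Of the 43 peaks found only in KO, 41 (95.3%, Wilson 95% interval 84.5 to 98.7%) lay over a CT H3K9me3 peak, beside 15.9% genome-wide. In this window CT H3K9me3 peaks covered 72.4% of the length, so any peak there is likely to overlap them. The interval treats neighbouring peaks of 1 list as independent. Of the same 43, 38 (88.4%) lay over a KO H3K4me3 peak, beside 19.0% genome-wide, and 0 lay over the KO H3K9me3 peak. Overlap with KO H3K4me3 was not particular to them, as 10 of the 12 shared peaks had it as well. Most of the 43 also lay over an H3K4me3 peak of the CT list. Of the 12 shared peaks, 10 lay over a CT H3K9me3 peak too, so CTCF and H3K9me3 peaks also met in CT cells. No CTCF peak of the CT list lay over an H3K27me3 peak of either genotype.

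The CTCF peaks were spread unevenly. In the bin chr5:140700001-140800000, which CT H3K9me3 peaks covered in full, their number went from 1 to 14. In chr5:140500001-140600000 it went from 0 to 9, and in chr5:140200001-140300000 from 4 to 11. In chr5:140300001-140400000, which CT H3K9me3 peaks covered to 9.90%, it went from 1 to 2. The widest CTCF peak of the locus was the KO peak chr5:140220607-140221559, at 953 bases, where CT had none. As no annotation of GRCh37 was used here, peaks were not assigned to single genes, and the promoter sequences above, on GRCh38, were not set against them.

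H3K4me3, a mark of active promoters, and H3K27ac, a mark of active promoters and enhancers, were gained. H3K4me3 went from 44 to 82 peaks and from 7.62% to 17.6% of the window, beside 3.28% and 3.77% of the genome. Of the 44 CT peaks, 43 had a KO partner, and 1 did not (genome 14.9% without one). Of the 82 KO peaks, 40 had none in CT (48.8%, genome 30.2%), and 36 of those 40 lay over a CT H3K9me3 peak (90.0%, genome 20.2%). Shared peaks lay there nearly as often, 35 of 42 in KO (83.3%), in a window that CT H3K9me3 peaks covered to 72.4%. The steepest rise was in chr5:140700001-140800000, from 10.2% to 36.0% of the bin. H3K27ac went from 18 to 33 peaks and from 2.98% to 5.53% of the window, beside 3.59% and 3.96% of the genome. All 18 CT peaks had a KO partner (genome 26.9% without one), and 15 KO peaks had none in CT (45.5%, genome 31.3%).

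H3K27me3, the mark of Polycomb repression, covered less of the locus in KO, unevenly along it. Its peaks went from 74 to 32 and from 29.8% to 20.9% of the window, beside 12.2% and 9.37% of the genome. Of the 74 CT peaks, 42 had no KO partner (56.8%, genome 47.0%), and of the 32 KO peaks, 5 had no CT partner (15.6%, genome 29.0%). Coverage went from 38.3% to 3.34% in chr5:140700001-140800000, from 23.7% to 0% in chr5:140800001-140900000 and from 13.3% to 0% in chr5:140300001-140400000. It went the other way in chr5:140500001-140600000, from 46.5% to 60.9%, and in chr5:140600001-140700000, from 5.41% to 19.2%. In CT, 88.1% of the H3K27me3 length lay under H3K9me3 peaks.

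**Figure D4:**
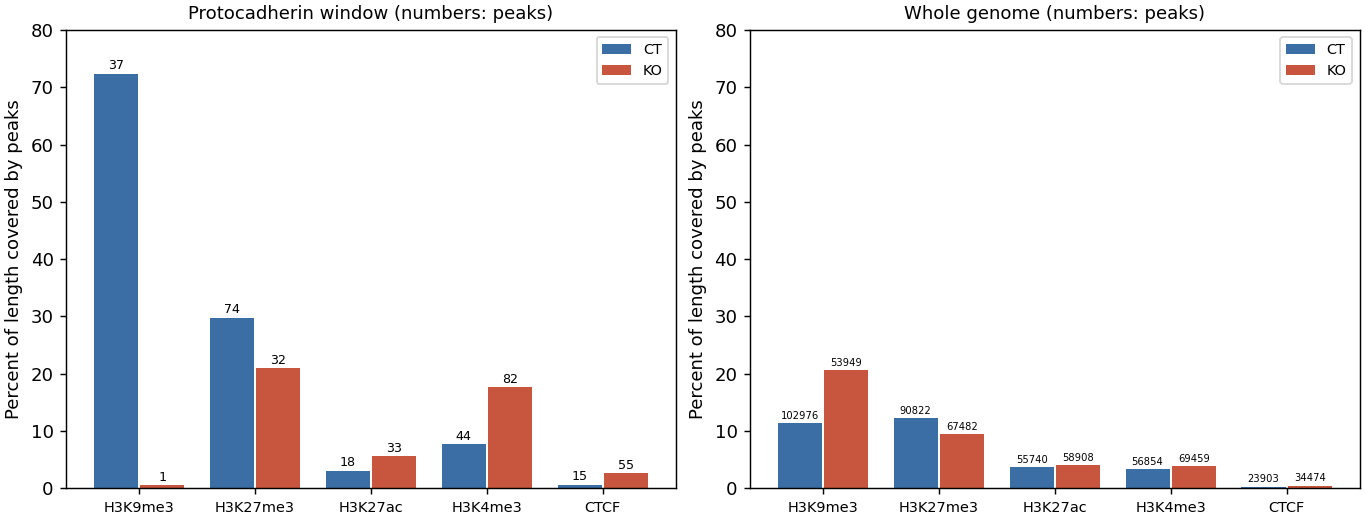
Percent of length covered by the deposited peaks of each mark (bars, from 0) in the 735 kb protocadherin window and over the whole genome, for CT and KO, with the number of peaks above each bar. H3K9me3 falls from 72.4% to 0.465% in the window while it goes from 11.3% to 20.5% genome-wide, and H3K4me3 goes from 7.62% to 17.6% in the window.

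Hi-C gave a signed compartment score per 100 kb bin, whose scale and orientation are not given in the sources used here. In CT the means of the 8 bins that overlap the window ran from -0.397 to 0.564, and in KO from 1.06 to 1.34. All 8 bins that overlap the window were higher in KO (limma, largest adjusted p 3.3e-07), beside 21.6% of 26496 bins called higher genome-wide and 58.8% called in either direction. Their differences ran from 0.78 to 1.59, with a median of 1.12 beside -0.0449 over all bins. Every KO replicate lay above every CT replicate in all 8 bins, as in 30.9% of all bins.

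The bin chr5:140600001-140700000 changed most. It had -0.391 and -0.403 in the CT replicates and 1.17 and 1.22 in the KO replicates, a difference of 1.59 (SE 0.042, limma adjusted p 4.2e-09), which ranked 35 of 26496 from the highest. Its neighbour chr5:140500001-140600000 had -0.335 and -0.313 in CT and 1.23 and 1.11 in KO, a difference of 1.49. Along with chr5:140400001-140500000 (-0.0163 and -0.0440 in CT), these were the 3 bins with a negative mean in CT, and none was negative in KO. The smallest difference, 0.78, was in chr5:140300001-140400000, with 0.552 and 0.576 in CT and 1.37 and 1.31 in KO. That is the bin with the least CT H3K9me3 coverage (9.90%) and the highest CT score of the 8. Over the 8 bins the KO means ran from 1.06 to 1.34, beside 1.15 to 1.33 in the bins before the locus.

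Bins beside the locus differed by less than the 8 locus bins, and 10 of the 15 were called higher. The 7 bins before it had CT means from 0.958 to 1.18 and a median difference of 0.153, with 4 called higher. The 8 bins after it had a median difference of 0.180, with 6 called higher, and the bin next to the locus, chr5:140900001-141000000, had the largest of these differences, 0.604, and a CT mean of 0.518, within the range of the locus bins.

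**Figure D5:**
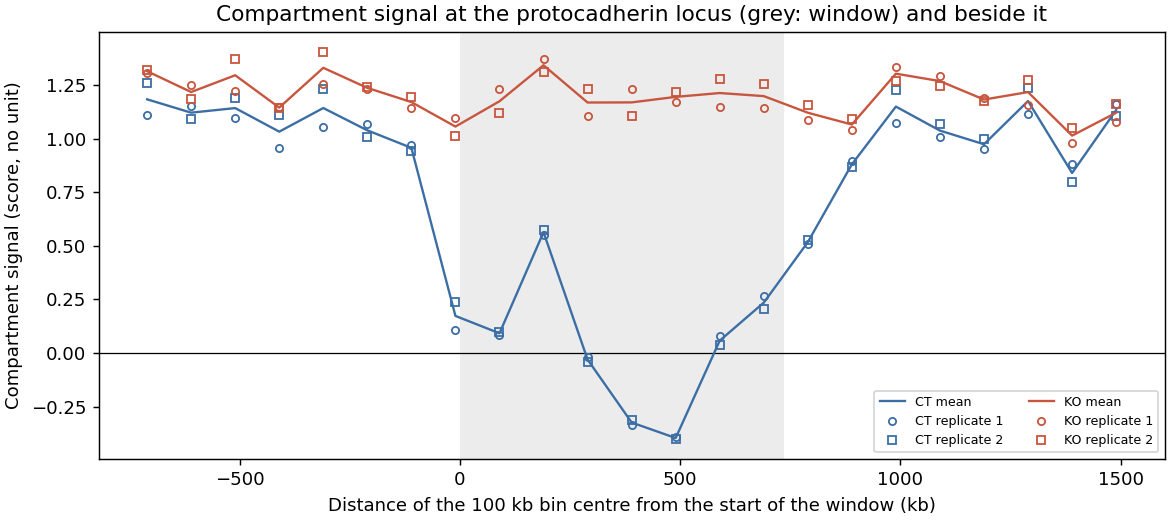
Compartment score of 23 bins of 100 kb against the distance of their centre from the start of the window (grey) in kb, with the 2 replicates of each genotype as symbols and their mean as a line. In CT the score dips to -0.397 inside the window, and in KO it stays between 1.06 and 1.34 there.

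The TAD lists differed inside the locus. In CT, a domain of 360 kb (chr5:140100001-140460000) and a domain of 500 kb (chr5:140460001-140960000) held the locus. In KO the list had 3 domains there, chr5:140160001-140460000 (300 kb), chr5:140460001-140580000 (120 kb) and chr5:140580001-140960000 (380 kb). The edge at 140460000 was common to both genotypes. The KO edges at 140160000 and 140580000 had no CT edge within 1 grid bin of 20 kb, whereas 92.6% of 7205 KO edges genome-wide had one. Within 1 bin of the edge at 140580000 there were 0 CTCF peaks in CT and 5 in KO, and near the shared edge there were 2 and 3. These are single lists without replicates, so the difference of 2 edges has no error.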

How the data were processed

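The deposited gene table held counts per gene, whole numbers and not normalised, made from total RNA with a stranded kit, per the labels' protocols. The submitters' processing notes name hg19, STAR 2.6.1c, Bowtie2 2.2.3, SAMtools 1.5, Picard, MACS2 and edgeR 3.30.0, with no role or order; how genes were counted is not given in the sources used here. For Hi-C the authors deposited a signed compartment score for each bin and replicate. The deposited peak and TAD lists held positions only, and neither their caller nor any pooling is given in the sources used here. Per the labels' protocols, MNase cut the chromatin for histone ChIP-seq, and CTCF chromatin was sonicated.

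Symbols matched 58642 of 62486 identifiers (93.8%). Counts were fitted on all genes in R 4.3.3 with edgeR 4.0.16 (TMM scaling, filterByExpr, robust quasi-likelihood test, genotype as the only term), with Benjamini-Hochberg adjustment at 0.05. Compartment scores were fitted with limma 3.58.1 on all bins. Peaks were partners if they shared 1 bp (pandas 2.3.3, scipy 1.17.1). Counting intervals are 95% (exact for ratios, Wilson for shares) and cover counting error only. The fits were tested on simulated data; with gene-wise dispersions, edgeR's false calls there exceeded the nominal rate. The 2 KO libraries labelled HK4me3 were taken as H3K4me3. RefSeq on GRCh38.p14 gave names, gene order and promoters only.

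The members and lists were chosen with earlier results of these data known. Values in each library are given for SETDB1, the 6 members with the largest absolute change in each of alpha, beta and gamma (adjusted p under 0.05, at least 10 counts in the higher group), the C-type genes, members called lower or not called, and the genes next to the cluster, and the 4 largest changes of each other list could be named. Other genes printed were chosen after their values were seen. Alternatives were limma voom or DESeq2 1.42.0 in place of edgeR, other scaling and low-count filters, omission of single libraries, a block for the replicate number, other peak rules and windows, and other edge tolerances. Input libraries were not analysed here, and 0 columns of samples went unmapped.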

Additional observations from a re-analysis of the deposited data

How the results depend on the processing

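The protocadherins called higher numbered 34 to 47 over the other scalings, filters and tests and 41 to 44 with a library left out, and 1 was called lower in each. DESeq2 called 40 higher. Without a filter the median log2 fold change was 1.39 for alpha, 3.80 for beta and 2.59 for gamma, and with a filter of 1 CPM it was 1.34 for alpha and 2.40 for gamma; other genes enter or leave the medians there. With a library left out, the beta median ran from 4.02 to 4.54. All 8 locus bins were also called higher after scaling of the replicate scores and with the replicate number as a block. The deposited score per genotype, which allows no test, was higher in KO in all 8.

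Same-numbered RNA-seq libraries were not taken as pairs (correlations of deviations 0.11, 0.064 and 0.047, with 5 of 6 libraries closest to their own number), and neither were Hi-C replicates (-0.0018). With the replicate number as a block, 43 protocadherins were called higher and 1 lower (medians 1.16, 4.48 and 2.75 for alpha, beta and gamma), and 8 locus bins.

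Keeping the wider 50% of peaks left 0 H3K9me3 peaks (0%) in KO and 0% of CT peaks with a partner. It left 26 H3K27me3 peaks (19.7% of the window) in CT and 18 in KO, 66.7% of them with a partner. It left 6 H3K27ac peaks (1.93%) in CT and 8 (2.83%) in KO, 75% with a partner; 21 H3K4me3 peaks in CT, 100% with a partner, and 53 in KO, 37.7% with one; and 8 CTCF peaks (0.320%) in CT and 32 in KO. With a reciprocal overlap of 50%, partners were found for 0% of H3K9me3 peaks in CT and 0% in KO, 27% and 62.5% of H3K27me3 peaks, and 68.2% and 36.6% of H3K4me3 peaks. A window wider by 100 kb held 4 H3K9me3 peaks (1.56%) in KO, 29 H3K27ac peaks (5.17%) in CT and H3K27ac over 8.45% in KO. A narrower one held 7 CTCF peaks (0.326%) in CT and 33 in KO. In each, CTCF and H3K4me3 peaks were more numerous in KO and H3K9me3 covered less. The cause of these moves was not tested. The limits are the low CT counts of many members, peak lists without heights or replicates, and reads shared between near-identical genes.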
